A study of Mus musculus with 35 samples.

Results

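Genes of the smooth muscle contractile apparatus and of the SRF and YAP transcription programmes were followed in mouse embryonic stem cells (ESCs). The 10 genes were *Acta2*, *Actg2*, *Tagln*, *Cnn1*, *Myl9*, *Tpm1*, *Tpm2*, *Ctgf*, *Cyr61* and *Ankrd1*. They were taken by name from a table of 26127 gene rows, and each had 1 row. Of the 11615 genes with enough expression to be tested (more than 1 RPKM in at least 2 libraries), 9 were in this set. *Actg2* did not pass that filter, since its highest level in any WT or *Dnmt1* KO library was 0.594 RPKM, and its values are given library by library.

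The libraries were made from total RNA, after removal of ribosomal RNA, of ESCs carrying loxP sites in both copies of *Dnmt1*, the gene of the methyltransferase that copies DNA methylation after replication. Groups were untreated control cells (labelled Wildtype, here WT) and cells in which Cre-mediated deletion had been induced (*Dnmt1* KO), per the study's methods with tamoxifen. Both were sampled at days 0, 1, 3, 6, 9, 11, 17 and 25, with 2 libraries per genotype and day and 3 at day 1. Drug, Cre activity and loss of *Dnmt1* go together in the KO groups, so their parts cannot be told apart. A single further library came from a *Dicer* KO line. The series describes 2 biological replicates per group, but no label tells whether these were separate cultures, so the p-values measure the spread between these libraries only. All cells were, per the study's methods, grown in serum with LIF, with or without feeder cells, and which libraries came from feeder cultures was not given in the sources used here. The *Dicer* KO line was made by CRISPR/Cas9 in the *Dnmt1* loxP/loxP cells, which still carry their *Dnmt1* gene. Its methods have such lines transfected on feeder plates and grown from single cells. The labels give the background strain as E14, whereas the methods give C57BL/6 for the parental line.

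Serum response factor (SRF) binds the CArG box, a DNA element with a CC and a GG end around an A/T-rich core. It acts with the coactivators MKL1 and MKL2, which enter the nucleus when free actin monomers are used up by filament assembly, or with myocardin in smooth muscle. YAP (*Yap1*) and TAZ (*Wwtr1*) are coactivators that the Hippo kinases keep out of the nucleus and that work through TEAD factors on the core sequence GGAATG. Both programmes respond to cell shape, attachment and serum, and *Acta2*, *Tagln* and *Cnn1* are classical smooth muscle genes that activated fibroblasts also use. In a bulk library a change in the share of cells that express a gene and a change in RNA per cell cannot be told apart.

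Promoter sequences of RefSeq (build GRCm38.p6, from 250 bases before to 50 bases after the start of each gene) were found for 7 of the 10 genes. They were searched on both strands for the CArG box and for GGAATG. The CArG box was present in 1.63% of 32851 mouse promoters of that length, and among the 7 genes it was found in *Myl9* only, at positions -161 to -152 from the start. GGAATG was present in 14.7% of promoters, and it was found in *Acta2*, *Tpm1*, *Cyr61* and *Ankrd1*, but not in the windows of *Cnn1*, *Tpm2* or *Myl9*. The *Ankrd1* window held it at 2 places, starting at -210 and at -123. The stretches around these matches are printed because they show where the letters lie in the genes described. They were picked after the matches were known, with the CArG box, GGAATG or its reverse complement in capitals and all else in lower case. The *Myl9* match has only A and T between its CC and GG ends. A match is a description of letters, not a measured binding site. A window without a match may still hold a site that departs from the letters searched. The *Myl9* stretch is chr2:156775274-156775363 (plus strand), that of *Ankrd1* is chr19:36119945-36120064 (minus), that of *Cyr61* is chr3:145649996-145650105 (minus), that of *Acta2* is chr19:34255454-34255543 (minus) and that of *Tpm1* is chr9:67049224-67049313 (minus).
*Myl9*: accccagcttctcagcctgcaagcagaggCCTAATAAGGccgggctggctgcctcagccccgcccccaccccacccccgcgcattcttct
*Ankrd1*: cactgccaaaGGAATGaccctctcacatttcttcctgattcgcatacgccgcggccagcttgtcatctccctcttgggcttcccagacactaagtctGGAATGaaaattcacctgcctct
*Cyr61*: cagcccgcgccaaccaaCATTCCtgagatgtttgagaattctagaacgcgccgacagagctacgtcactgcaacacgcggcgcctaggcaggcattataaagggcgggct
*Acta2*: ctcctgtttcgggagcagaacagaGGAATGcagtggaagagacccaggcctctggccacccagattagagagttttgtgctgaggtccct
*Tpm1*: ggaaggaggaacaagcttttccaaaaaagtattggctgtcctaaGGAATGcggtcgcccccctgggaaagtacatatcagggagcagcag

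*Dnmt1* RNA was first checked against the labels. It lay between 14.1 and 34.8 RPKM in the WT libraries and between 2.58 and 4.398 RPKM in the *Dnmt1* KO libraries of days 1 to 25, with exceptions at days 1 and 6. The third day 1 KO library had 8.13 RPKM. At day 0 the libraries labelled KO had 18.5 and 18.7 RPKM, within the range of WT, so *Dnmt1* RNA had not yet fallen in them. At day 6 the libraries labelled WT had 3.22 and 3.40 RPKM and those labelled KO had 20.2 and 20.4 RPKM, which goes against the labels, so day 6 is described apart and its groups keep their labels. Reads in exons of genes numbered about 5100000 to 17500000 per library. They made up 20.2% to 22.0% of the library in 20 libraries (days 0, 3, 6 and 9 and the other day 1 libraries; low-share libraries) and 44.1% to 48.8% in 15 (the third day 1 libraries, days 11, 17 and 25, and *Dicer* KO; high-share libraries). KO and WT of a day shared a class except within day 1, so levels are compared within days or within a class.

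After *Dnmt1* deletion the contractile genes *Acta2*, *Tagln*, *Myl9* and *Tpm1* were higher in KO than in WT at days 3, 9, 11 and 17, most of all at day 17. The YAP target *Cyr61* was higher at days 3, 11 and 17, whereas *Cnn1* was called at day 11 only, as lower, and *Tpm2* was lower at days 11 and 25 and higher at day 17. At day 25 most of these differences were gone or lay the other way. The *Dicer* KO library held more of all 10 RNAs than any other library of the series. Differences are KO minus WT on the log2(RPKM + 0.1) scale, with limma's standard error and with p-values adjusted over all 11615 genes, unless another scale is named.

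**Figure D1:**
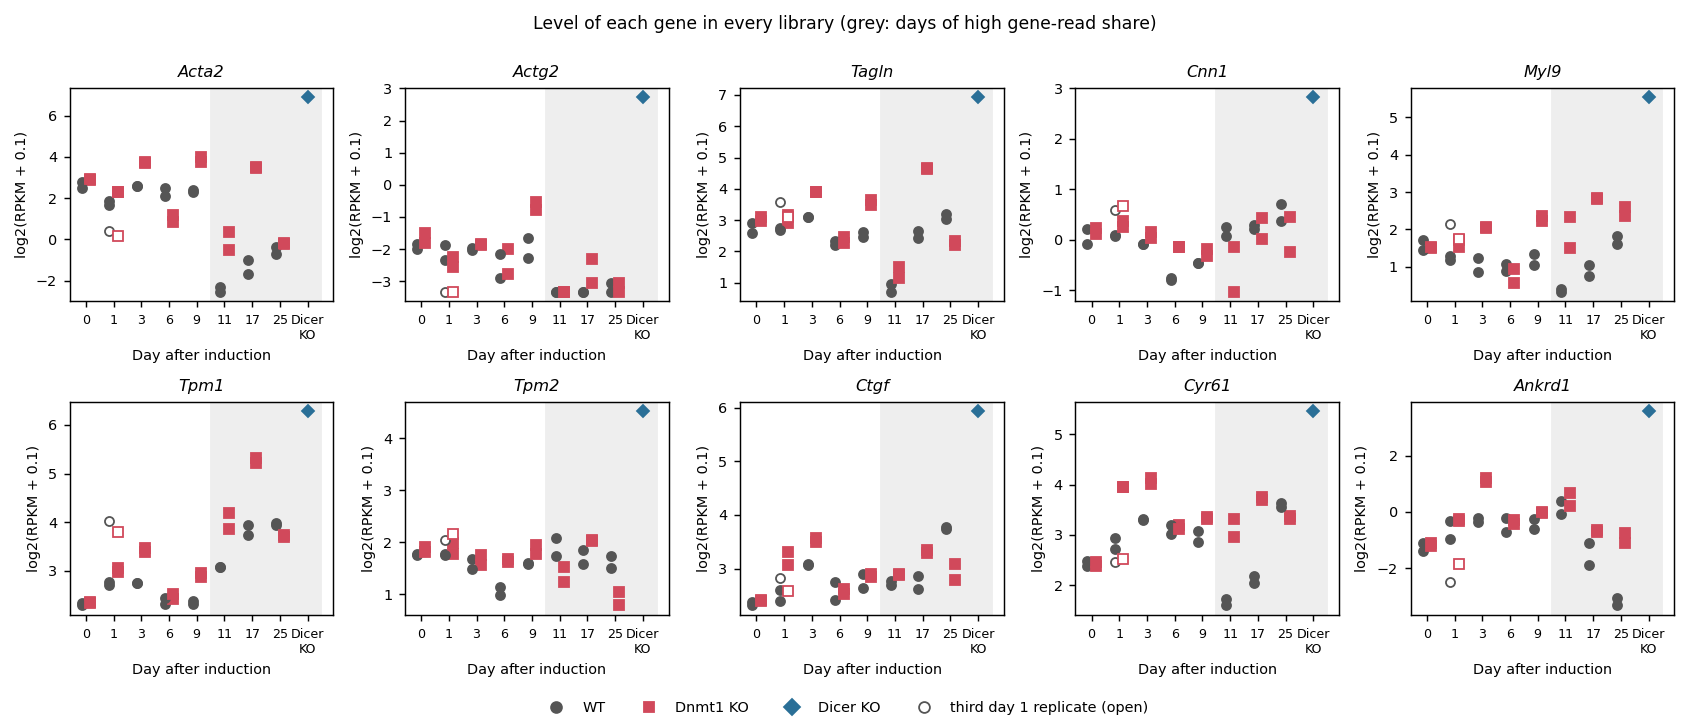
Level of each of the 10 genes, as log2(RPKM + 0.1), in every library by day after induction, with WT as grey circles, *Dnmt1* KO as red squares, the third day 1 libraries as open symbols and the *Dicer* KO library as a blue diamond. The grey field marks the high-share days, and *Acta2* in KO at day 17 (11.05 and 11.13 RPKM) stands far above WT of that day (0.207 and 0.398 RPKM).

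*Acta2* encodes the actin of the smooth muscle thin filament and lies on chromosome 19 of NCBIM37 (34315580 to 34329826, minus strand, ENSMUSG00000035783.8). At day 0 it had 6.81 and 5.61 RPKM in WT and 7.21 and 7.44 RPKM in KO, a difference of 0.24 ± 0.233 (SE; limma adjusted p 1). At day 3 WT had 5.85 and 5.99 RPKM and KO had 13.5 and 12.8 RPKM. At day 9 WT had 5.23 and 4.73 RPKM and KO had 15.8 and 13.3 RPKM. At both days each KO library was higher than each WT library, by 1.14 ± 0.233 and 1.52 ± 0.233 (limma adjusted p 0.00225 and 4.06e-05).

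In the high-share WT libraries *Acta2* was much lower. The KO libraries were still above the WT libraries of their day at days 11, 17 and 25, but not in the third day 1 pair, with 1.205 RPKM in WT against 1.003 RPKM in KO. At day 11 WT had 0.104 and 0.0729 RPKM and KO had 1.16 and 0.593 RPKM. These levels rested on 11 reads in WT and 97 in KO, a ratio per library total of 10.1 (exact 95% interval 5.42 to 21.0, counting error only). At day 17 WT had 0.398 and 0.207 RPKM and KO had 11.05 and 11.13 RPKM. That ratio was 36.7 (25.8 to 53.9), from 32 reads in WT and 1215 in KO, and the difference was 4.84 ± 0.233 (limma adjusted p 1.88e-13). With a pseudocount of 1 the difference was 0.77 at day 11 and 3.22 at day 17, against 2.32 ± 0.233 at day 11 with 0.1 (limma adjusted p 8.2e-08). At day 25 WT had 0.673 and 0.517 RPKM and KO had 0.755 and 0.788 RPKM, and the difference of 0.33 ± 0.233 did not pass the test (limma adjusted p 0.212).

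*Actg2*, the enteric form of smooth muscle actin (chromosome 6, 83462899 to 83486259, minus strand, ENSMUSG00000059430.8), was scarce throughout. In the low-share libraries it ranged up to 0.252 RPKM apart from KO day 9, where it had 0.594 and 0.476 RPKM against 0.217 and 0.105 RPKM in WT. Both KO libraries of day 9 were thus higher than the other 32 WT and *Dnmt1* KO libraries. Fitted without a filter, the difference at day 9 was 1.31 ± 0.276 (limma adjusted p 0.00237), and at no other day did it pass. The levels of day 9 rested on 24 and 4 reads in WT and 40 and 26 reads in KO. At day 11 all 4 libraries were at 0, where 3 reads, taken as the floor, would be 0.0499 to 0.0634 RPKM depending on the library. At day 17 the KO libraries had 0.103 and 0.0209 RPKM, or 6 reads in all, and the WT libraries had none. Actin genes have nearly the same coding sequence, so reads of *Acta2* and *Actg2* may have been shared with other actins or discarded, and the part of this in their levels was not tested.

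*Tagln* encodes transgelin (SM22), an actin-binding protein and an early marker of smooth muscle (chromosome 9, 45737711 to 45744141, minus strand, ENSMUSG00000032085.4). At day 3 it had 8.51 and 8.40 RPKM in WT and 14.9 and 14.7 RPKM in KO. At day 9 it had 5.99 and 5.34 RPKM in WT and 12.3 and 11.08 RPKM in KO. At day 17 it had 6.195 and 5.31 RPKM in WT and 24.5 and 25.16 RPKM in KO. The genotypes did not overlap on these days, and the differences were 0.80 ± 0.154, 1.03 ± 0.154 and 2.10 ± 0.154 (limma adjusted p 0.00127, 2.83e-05 and 2.44e-10). Day 11, with 1.82 and 1.54 RPKM in WT and 2.71 and 2.10 RPKM in KO, held a smaller difference of 0.49 ± 0.154 (limma adjusted p 0.0173). It did not pass without KO replicate 1 (0.31, limma adjusted p 0.159) or without WT replicate 2 of that day (0.37, limma adjusted p 0.146), nor with every library centred on its median (0.37, limma adjusted p 0.075). At day 25 the order was turned round, with 8.04 and 9.09 RPKM in WT and 4.98 and 4.51 RPKM in KO (-0.84 ± 0.154, limma adjusted p 6.46e-05).

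*Myl9*, the regulatory light chain of smooth muscle and non-muscle myosin II, lies on chromosome 2 (156601156 to 156607394, plus strand, ENSMUSG00000067818.6) and is the gene whose promoter stretch above holds the CArG box. It was the only contractile gene of the set that was called higher in KO on each of days 3, 9, 11, 17 and 25. Its levels at day 17 were 1.57 and 1.96 RPKM in WT and 6.93 and 7.01 RPKM in KO, a difference of 1.93 ± 0.209 (limma adjusted p 1.31e-07). At day 11 it had 1.22 and 1.16 RPKM in WT and 4.93 and 2.76 RPKM in KO, with KO replicate 1 well above KO replicate 2. At day 25 it had 3.44 and 2.95 RPKM in WT and 6.01 and 4.998 RPKM in KO, and the difference had come down to 0.77 ± 0.209 (limma adjusted p 0.0029). At day 3 the call was lost without WT replicate 2 (0.82, limma adjusted p 0.0653).

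*Cnn1* encodes calponin, which binds actin and slows the myosin motor, and is a later marker of smooth muscle (chromosome 9, 21903725 to 21914074, plus strand, ENSMUSG00000001349.4). It stayed between 0.39 and 1.54 RPKM in the 34 WT and *Dnmt1* KO libraries and did not follow *Acta2*. At day 17 it had 1.13 and 1.06 RPKM in WT and 1.24 and 0.912 RPKM in KO (-0.04 ± 0.213, limma adjusted p 0.913), so the groups overlapped where *Acta2* was furthest apart. At day 11 it was lower in KO, with 0.806 and 0.39 RPKM against 1.09 and 0.954 RPKM (-0.75 ± 0.213, limma adjusted p 0.00886). That call rested on KO replicate 2, without which the difference was -0.31 (limma adjusted p 0.263), and it was also lost without WT replicate 1 (-0.66, limma adjusted p 0.0787). Day 25, with 1.195 and 1.54 RPKM in WT and 1.26 and 0.744 RPKM in KO, gave -0.44 ± 0.213 (limma adjusted p 0.0725). It passed without WT replicate 1 (-0.61, limma adjusted p 0.0496) or KO replicate 1 (-0.79, limma adjusted p 0.00677).

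*Tpm1* and *Tpm2* encode tropomyosins, coiled coils that run along the actin filament and control which proteins bind it. *Tpm1* (chromosome 9, 66870397 to 66897213, minus strand, ENSMUSG00000032366.9) had 15.2 and 13.2 RPKM in WT and 36.9 and 39.7 RPKM in KO at day 17 (1.43 ± 0.103, limma adjusted p 2.05e-10). At day 11 it had 8.34 and 8.33 RPKM in WT and 18.2 and 14.5 RPKM in KO (0.95 ± 0.103, limma adjusted p 2.66e-07). At day 3 it had 6.66 and 6.68 RPKM in WT and 10.96 and 10.4 RPKM in KO, and at day 9 it had 4.86 and 5.09 RPKM in WT and 7.64 and 7.19 RPKM in KO. The KO libraries were above the WT libraries on each of these days, and at day 25 they were lower, at 12.9 and 13.2 RPKM against 15.4 and 15.6 RPKM. That small difference of -0.25 ± 0.103 (limma adjusted p 0.04) no longer passed when any 1 of the 4 libraries of day 25 was left out (limma adjusted p 0.0847 to 0.134).

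*Tpm2* (chromosome 4, 43527583 to 43536637, minus strand, ENSMUSG00000028464.9) was called in both directions. At day 11 it had 4.13 and 3.25 RPKM in WT and 2.79 and 2.25 RPKM in KO (-0.53 ± 0.126, limma adjusted p 0.00227), a call lost without WT replicate 1 (-0.36, limma adjusted p 0.0761). At day 17 it had 3.51 and 2.89 RPKM in WT and 4.03 and 3.98 RPKM in KO (0.32 ± 0.126, limma adjusted p 0.0455). That call was lost without either KO replicate (limma adjusted p 0.142 and 0.12), without WT replicate 2 (0.19, limma adjusted p 0.349) and with median centring (0.14, limma adjusted p 0.425). At day 25 it was lower in KO, at 1.63 and 1.97 RPKM against 2.75 and 3.24 RPKM (-0.70 ± 0.126, limma adjusted p 4.95e-05).

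*Ctgf* and *Cyr61* (now also named *Ccn2* and *Ccn1*) encode secreted matrix proteins and are among the best known genes that YAP and TEAD switch on. *Cyr61* (chromosome 3, 145309935 to 145312949, minus strand, ENSMUSG00000028195.3) was the only gene of the set called at day 1. In the low-share libraries of that day it had 6.52 and 7.52 RPKM in WT and 15.3 and 15.4 RPKM in KO, whereas the third, high-share, pair held 5.43 RPKM (WT) and 5.63 RPKM (KO). The difference over all 6 libraries was 0.76 ± 0.134 (limma adjusted p 0.0222), and without the third pair it was 1.12. The call was lost when any 1 of the 4 low-share libraries of day 1 was left out (limma adjusted p 0.0984 to 0.15).

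At later days *Cyr61* was higher in KO at day 3 (17.5 and 16.1 RPKM against 9.70 and 9.82 RPKM), at day 11 (7.61 and 9.81 RPKM against 3.18 and 2.92 RPKM) and at day 17 (12.8 and 13.3 RPKM against 4.45 and 4.003 RPKM). Its differences were 0.77 ± 0.164, 1.47 ± 0.164 and 1.61 ± 0.164 (limma adjusted p 0.0031, 3.92e-07 and 5.71e-08). At day 25 WT had risen to 12.3 and 11.6 RPKM and KO had 10.3 and 9.81 RPKM, and the difference of -0.24 ± 0.164 did not pass (limma adjusted p 0.197).

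*Ctgf* (chromosome 10, 24315248 to 24318489, plus strand, ENSMUSG00000019997.4) was higher in KO only at day 17 and lower at day 25. At day 17 it had 6.05 and 7.14 RPKM in WT and 10.1 and 9.70 RPKM in KO (0.58 ± 0.16, limma adjusted p 0.0057), a call lost without WT replicate 1 (0.47, limma adjusted p 0.0731). At day 25 it had 13.2 and 13.5 RPKM in WT and 8.37 and 6.76 RPKM in KO (-0.82 ± 0.16, limma adjusted p 0.000132). At day 1 the low-share libraries had 5.15 and 5.94 RPKM in WT and 9.87 and 8.28 RPKM in KO. In the third pair the level was 6.94 RPKM for WT and 5.87 RPKM for KO, so the direction differed between the classes and the difference over all 6 libraries did not pass (0.39 ± 0.131, limma adjusted p 0.26). Without the third pair it was 0.70 (limma adjusted p 0.00384).

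*Ankrd1*, a nuclear and sarcomeric ankyrin repeat protein and a YAP target, lies on chromosome 19 (36186455 to 36194334, minus strand, ENSMUSG00000024803.8) and its promoter stretch above holds 2 GGAATG sequences. It was scarce, and its pattern differed from that of the contractile genes. At day 3 it had 0.673 and 0.767 RPKM in WT and 2.22 and 1.98 RPKM in KO (1.42 ± 0.242, limma adjusted p 0.000408), the highest levels among the 34 WT and *Dnmt1* KO libraries. At day 17 it had 0.172 and 0.361 RPKM in WT and 0.513 and 0.537 RPKM in KO (0.82 ± 0.242, limma adjusted p 0.00941), a call lost without WT replicate 1 (0.44, limma adjusted p 0.219) or KO replicate 2 (0.79, limma adjusted p 0.0524). At day 25 WT had 0.0189 RPKM and 0 RPKM, which is 1 read in all, and KO had 0.362 and 0.499 RPKM, from 46 reads. The ratio of reads per library total was 43.5 (exact 95% interval 7.43 to 1756). The difference of 2.27 ± 0.242 (limma adjusted p 7.28e-08) depends on the pseudocount at such low levels: it was 0.50 with a pseudocount of 1 and 4.68 with 0.01.

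**Figure D2:**
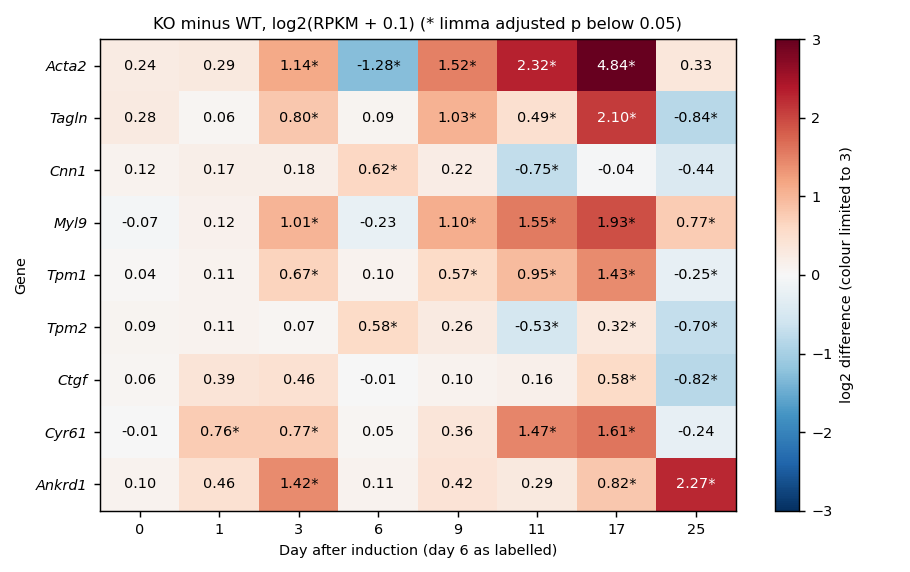
Difference KO minus WT in log2(RPKM + 0.1) for the 9 tested genes (rows) at each day (columns), with red for higher and blue for lower in KO, colour limited to 3 units, and an asterisk where the limma adjusted p was below 0.05. *Acta2* at day 17 (4.84) is the darkest cell, day 25 holds lower values in 6 of 9 rows, and the day 6 column follows the labels, which *Dnmt1* RNA contradicts.

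The counts of called genes are set beside the share of all 11615 genes called in the same direction. At day 0 none of the 9 genes was called, and limma called 0.0% of all genes in either direction (242 genes had an unadjusted p below 0.05). At day 1 1 gene was called higher, against 0.121% of all genes. At day 3 6 of 9 were called higher (*Acta2*, *Tagln*, *Myl9*, *Tpm1*, *Cyr61* and *Ankrd1*) and none lower, against 7.4% and 3.81% of all genes. At day 9 4 were higher (*Acta2*, *Tagln*, *Myl9* and *Tpm1*) and none lower, against 16.7% and 10.5%. At day 11 5 were higher (the same 4 and *Cyr61*) and 2 lower (*Cnn1* and *Tpm2*), against 22.7% and 12.3%. The 2 KO libraries of day 11 differed from each other more than any other pair of the same group and class. Fitted alone, the groups of day 11 gave fewer calls, as described below. At day 17 8 were higher, all but *Cnn1*, and none lower, against 28.9% and 11.4%. At day 25 2 were higher (*Myl9* and *Ankrd1*) and 4 lower (*Tagln*, *Tpm1*, *Tpm2* and *Ctgf*), against 39.4% and 25.9%. The median difference of the 9 genes was 0.77 at day 3, 0.42 at day 9, 0.49 at day 11, 1.43 at day 17 and -0.25 at day 25, and that of all tested genes was 0.02, 0.02, 0.07, 0.09 and 0.13.

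These calls depend on how the third day 1 libraries enter the fit. Without a term of their own for these 2 libraries, 0 of the 9 genes were called at day 3, 2 higher at day 9, 3 higher at day 11, 5 higher at day 17 and 2 higher and 3 lower at day 25. The differences at these days are the same in both fits. With the 2 libraries left out altogether, 7 were called higher at day 3 and 5 at day 9. In that setting 5 were higher and 2 lower at day 11, 7 higher at day 17, and 2 higher and 5 lower at day 25. With every library centred on its median, the split of all calls moved to 664 higher and 665 lower at day 3 (859 and 442 before centring), 1561 and 1580 at day 9 (1940 and 1220), 1714 and 2375 at day 11 (2636 and 1430) and 2031 and 2970 at day 17 (3352 and 1319).

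Averaged over days 3, 9, 11, 17 and 25, 6 genes were called higher in KO and none lower, against 37.4% and 20.4% of all genes. *Acta2* led with 2.03 ± 0.104 (limma adjusted p 1.5e-13) and *Myl9* followed with 1.27 ± 0.0934 (limma adjusted p 9.74e-11). *Ankrd1* had 1.04 ± 0.108, *Cyr61* 0.79 ± 0.0735, *Tagln* 0.71 ± 0.0687 and *Tpm1* 0.67 ± 0.0462. *Ctgf* (0.10 ± 0.0717), *Tpm2* (-0.12 ± 0.0563) and *Cnn1* (-0.17 ± 0.0953) did not pass (limma adjusted p 0.259, 0.0806 and 0.14). *Cnn1* passed as lower without KO replicate 1 of day 11 or of day 25 (limma adjusted p 0.00808 and 0.0297), and *Tpm2* passed as lower without KO replicate 1 or WT replicate 2 of day 11, WT replicate 2 of day 17, or WT replicate 1 or KO replicate 2 of day 25 (limma adjusted p 0.0256 to 0.0464). With a pseudocount of 1 the mean for *Acta2* was 1.31 and that for *Ankrd1* 0.40. With median centring *Cnn1* (-0.24, limma adjusted p 0.0348) and *Tpm2* (-0.19, limma adjusted p 0.00842) were called lower as well, which made 6 genes higher and 2 lower. Over all genes centring gave 3041 genes higher and 3666 lower over these days, against 4349 and 2370 without centring.

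Whether the KO effect differed between days was tested as a contrast of contrasts. Between days 25 and 11, 6 genes had a lower effect at day 25 and *Ankrd1* a higher one, against 27.1% and 29.5% of all genes. The effect on *Acta2* fell by 1.98 ± 0.329 (limma adjusted p 3.45e-05), that on *Cyr61* by 1.72 ± 0.232 (limma adjusted p 3.57e-06) and that on *Tagln* by 1.32 ± 0.217 (limma adjusted p 2.99e-05). For *Myl9* the fall of 0.79 ± 0.295 (limma adjusted p 0.0267) was 0.38 without KO replicate 1 of day 11 (limma adjusted p 0.222). That call was also lost without WT replicate 2 of day 11, WT replicate 1 of day 25 or KO replicate 2 of day 25 (limma adjusted p 0.0632 to 0.103). Between days 25 and 17, a contrast added after the values had been seen, 7 genes had a lower effect at day 25 and *Ankrd1* a higher one, 8 of 9 in all, against 54.4% of all genes in either direction. *Acta2* fell by 4.504 ± 0.329 and *Tagln* by 2.93 ± 0.217 (limma adjusted p 2.61e-09 and 2.66e-09). *Cnn1* passed only without KO replicate 1 of day 11 in the first contrast (0.75, limma adjusted p 0.0171) and without KO replicate 1 of day 25 in the second (-0.75, limma adjusted p 0.0426). The contrasts share the day 25 libraries and are not independent of each other.

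Levels had changed by day 25 in WT as well as in KO. From day 11 to day 25 in WT, 6 of the 9 genes rose and 2 fell, against 34.7% and 33.2% of all genes. *Tagln* rose by 2.28 ± 0.154, *Cyr61* by 1.93 ± 0.164, *Acta2* by 1.88 ± 0.233, *Myl9* by 1.35 ± 0.209, *Ctgf* by 1.02 ± 0.16 and *Tpm1* by 0.89 ± 0.103. The rise of *Acta2* started from 0.104 and 0.0729 RPKM (6 and 5 reads), so its size depends on the pseudocount. *Ankrd1* fell by 3.35 ± 0.242, from 1.202 and 0.854 RPKM to 0.0189 and 0 RPKM, and *Tpm2* by 0.29 ± 0.126 (limma adjusted p 0.0476). The call on *Tpm2* was lost without WT replicate 1 of day 11 (-0.12, limma adjusted p 0.494) or of day 25 (-0.17, limma adjusted p 0.338). In KO *Acta2* went from 11.05 and 11.13 RPKM at day 17 to 0.755 and 0.788 RPKM at day 25, and *Tagln* from 24.5 and 25.16 RPKM to 4.98 and 4.51 RPKM. From day 0 to day 9 in WT, within the low-share libraries, *Ankrd1* (0.81 ± 0.242, limma adjusted p 0.0258) and *Cyr61* (0.55 ± 0.164, limma adjusted p 0.0279) rose and none fell, against 7.75% and 7.26% of all genes. Both calls were lost without either WT library of day 0 or without WT replicate 2 of day 9 (limma adjusted p 0.0621 to 0.271).

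At day 6, where *Dnmt1* RNA goes against the labels, *Acta2* had 4.16 and 5.46 RPKM in the libraries labelled WT, the ones low in *Dnmt1* RNA, and 2.15 and 1.69 RPKM in those labelled KO. The difference as labelled was -1.28 ± 0.233 (limma adjusted p 0.000263). *Cnn1* (0.62 ± 0.213, limma adjusted p 0.034) and *Tpm2* (0.58 ± 0.126, limma adjusted p 0.00137) were higher in the libraries labelled KO. This made 2 genes higher and 1 lower as labelled, against 8.61% and 18.5% of all genes. The call on *Cnn1* was lost when any 1 of the 4 libraries was left out (limma adjusted p 0.106 to 0.133). The other 6 genes differed by 0.23 log2 units at most, and in each of them the groups overlapped. Centring moved the split of all calls at day 6 from 1000 higher and 2143 lower to 1561 and 1544.

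Among the regulators, *Srf* had 1.89 to 2.82 RPKM in the low-share libraries and 2.89 to 5.16 RPKM in the high-share ones, and the SRF coactivator gene *Myocd*, which drives the smooth muscle programme, was at or near 0 in the 34 WT and *Dnmt1* KO libraries (0.0195 RPKM at most). *Mkl2* was higher in KO at days 11 and 17 (0.73 ± 0.182 and 0.79 ± 0.182, limma adjusted p 0.00333 and 0.00129) and lower at day 25 (-0.64 ± 0.182, limma adjusted p 0.00395). *Srf* was higher at day 11 (0.48 ± 0.0979, limma adjusted p 0.000615), and *Mkl1* was lower at day 25 (-1.95 ± 0.323, limma adjusted p 2.1e-05). At days 3 and 9 none of the 3 tested regulators (*Srf*, *Mkl1* and *Mkl2*) was called. Among all genes the shares called were 7.4% (higher) and 3.81% (lower) on day 3, against 16.7% (higher) and 10.5% (lower) on day 9. With such shares, no call among 3 genes does not set the regulators apart from all genes. RNA levels do not show whether MKL1 or MKL2 was in the nucleus, and this was not tested.

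Of 19 other known SRF targets, 16 were tested. They were called higher in 9, 8, 11 and 12 cases at days 3, 9, 11 and 17 and lower in none, against 7.4%, 16.7%, 22.7% and 28.9% of all genes called higher. At day 25 4 were higher and 10 lower, against 39.4% and 25.9% of all genes, so the share called higher was below that of all genes. The examples with the largest differences were *Fhl2* and *Fhl1*, LIM domain genes, at day 17 (2.16 ± 0.187 and 1.80 ± 0.0864), and *Zyx*, a focal adhesion gene, at day 25 (-2.58 ± 0.265). The median difference of the 16 was 0.59 at day 17 and -0.46 at day 25, against 0.09 and 0.13 for all genes. Of 19 other YAP targets, 16 were tested. They were called higher in 5, 5 and 7 cases and lower in 1, 1 and 3 at days 3, 9 and 11. Of all genes 7.4%, 16.7% and 22.7% were then called higher and 3.81%, 10.5% and 12.3% lower. At day 17 7 of the 16 were higher and 2 lower, whereas 2 were higher and 7 lower at day 25. The shares of all genes were 28.9% and 11.4% at day 17 and 39.4% and 25.9% at day 25, and the lower calls at day 17 were near theirs. *Ccdc80* (1.54 ± 0.208) and *Myof* (1.26 ± 0.178) led at day 17, and *Ptpn14* (-1.94 ± 0.224) and *Axl* (-1.44 ± 0.208) at day 25. Of the 18 genes of the Hippo pathway with *Yap1*, *Wwtr1* and the TEAD factors, 9 were higher and 2 lower at day 17, and 3 were higher and 9 lower at day 25, to be read against the same shares. At days 3, 9 and 11 these 18 genes were called higher in 4, 6 and 7 cases and lower in 0, 1 and 3, to be read against the shares of those days. Some genes stand in more than 1 list, and the lists were chosen with earlier results of these data known.

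**Figure D3:**
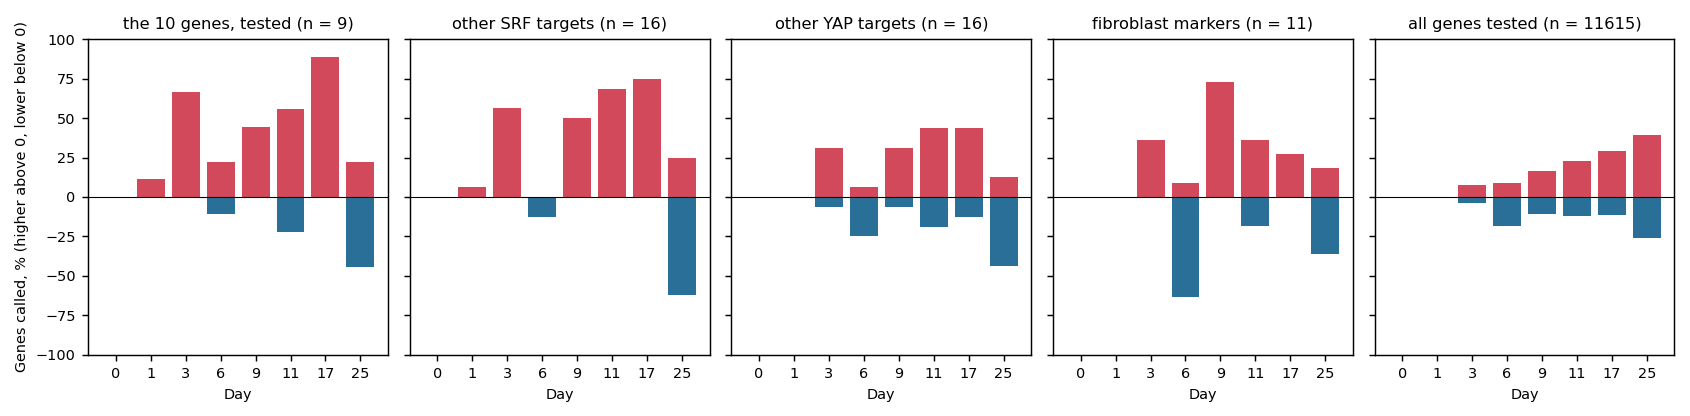
Share of tested genes called (limma adjusted p below 0.05) higher in KO (red, above 0) or lower in KO (blue, below 0) at each day, for the 9 tested genes of the set, 16 other SRF targets, 16 other YAP targets, 11 fibroblast markers and all 11615 genes. At day 17 8 of the 9 genes and 12 of the 16 SRF targets are higher and none lower, and at day 25 10 of the 16 SRF targets are lower.

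The name of the set was compared with the markers of smooth muscle and of other cells. Of 11 further contractile genes of smooth muscle only 4 reached the filter, and the defining gene *Myh11*, smooth muscle myosin, had 0.0569 RPKM at most in the WT and *Dnmt1* KO libraries. *Cnn2*, which many cell types express, was the only 1 of the 4 called higher at day 17 (1.32 ± 0.109), and *Smtnl2* was lower (-0.73 ± 0.126). The shares of all genes were 28.9% and 11.4%, so the share called higher was near that of all genes. At day 25 3 of the 4 were higher and 1 lower, against 39.4% and 25.9% of all genes. Their median difference was then 0.49, against -0.25 for the 9 genes of the set. In the WT and *Dnmt1* KO libraries the heart gene *Tnnt2* and the skeletal muscle gene *Myod1* did not exceed 0.0565 and 0.0433 RPKM. Only 1 of 8 heart markers (*Ryr2*) and 1 of 7 skeletal muscle markers (*Acta1*) were tested, and both moved with the set at some days only. At day 9 neither was called (0.41 for *Ryr2* and -0.14 for *Acta1*), nor was *Ryr2* at day 3 (0.32). *Acta1*, the actin of skeletal muscle and itself an SRF target, was higher in KO at days 3, 11 and 17 (1.21 ± 0.257, 0.77 ± 0.257 and 1.53 ± 0.257) and lower at day 25 (-0.88 ± 0.257). *Ryr2*, a calcium release channel of the heart, was higher at days 11 and 17 (0.88 ± 0.167 and 0.42 ± 0.167) and lower at day 25 (-0.80 ± 0.167). The 8 markers of ESCs were above 1 RPKM in every library, with *Pou5f1* between 45.5 and 260.4 RPKM, but their levels were not constant. At day 25 6 of the 8 were higher in KO and 0 lower, against 39.4% and 25.9% of all genes. *Nanog* led with 2.23 ± 0.12. At day 17 4 were higher and 2 lower, against 28.9% and 11.4%. In WT from day 11 to day 25, 4 fell and 0 rose, against 33.2% and 34.7% of all genes. The 10 genes are named here as genes, not as markers of smooth muscle cells.

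Fibroblasts, including feeder cells, also express *Acta2*, *Tagln* and *Cyr61*, so their markers are given beside the result. The summed level of 19 fibroblast markers was 33.4 and 38.2 RPKM in WT and 52.0 and 52.7 RPKM in KO at day 3, and 45.2 and 53.4 RPKM in WT and 93.35 and 104.8 RPKM in KO at day 9. Of the 11 tested markers, 4 were called higher at day 3 and 8 at day 9, against 7.4% and 16.7% of all genes, with *Col3a1* 1.48 ± 0.185 at day 9. In the day 6 libraries labelled KO, where *Acta2* was lower, 7 were lower and 1 higher, against 18.5% and 8.61% of all genes. At these low-share days fibroblast markers thus moved in the same direction as *Acta2*, and their part in the result was not tested.

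At the high-share days the defining collagen genes were at or near 0. *Col1a1*, *Col1a2* and *Col3a1* did not exceed 0.112, 0.0393 and 0.0447 RPKM in these 14 WT and *Dnmt1* KO libraries, against medians of 1.51, 2.09 and 1.28 RPKM in the 20 low-share libraries. The KO libraries of day 17, with 11.05 and 11.13 RPKM of *Acta2*, had 0.0186 and 0.0296 RPKM of *Col1a2*. At day 11 4 of the 11 tested fibroblast markers were higher and 2 lower, against 22.7% and 12.3% of all genes. The largest difference was that of *Thy1*, which was lower (-1.98 ± 0.244). The summed level of all 19 was then 13.5 and 12.8 RPKM in WT and 15.3 and 14.5 RPKM in KO. At day 17 3 of the 11 tested fibroblast markers were higher and none lower, a share near the 28.9% of all genes called higher, led by *Col6a1* (1.25 ± 0.163) and *Vim* (0.72 ± 0.144), and the summed level of all 19 was 14.8 and 16.8 RPKM in WT and 22.3 and 25.5 RPKM in KO. At day 25 2 were higher and 4 lower, against 39.4% and 25.9% of all genes, while the sum was 26.3 and 27.1 RPKM in WT and 47.9 and 49.8 RPKM in KO, most of it *Vim*.

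**Figure D4:**
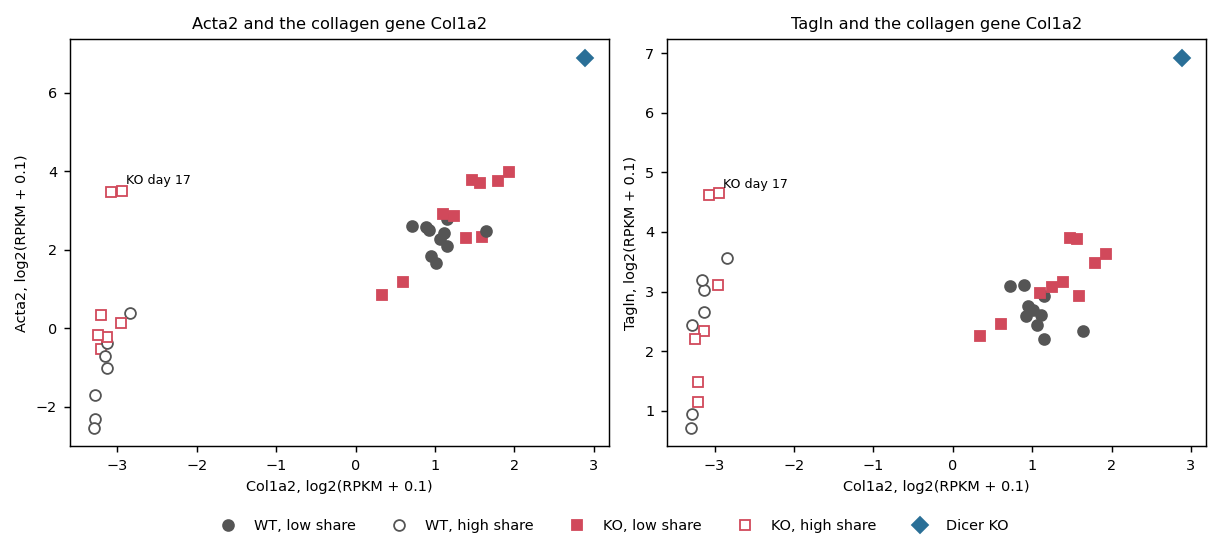
*Acta2* (left) and *Tagln* (right) against the collagen gene *Col1a2*, each as log2(RPKM + 0.1), in every library, with filled symbols for low-share and open symbols for high-share WT (circles) and *Dnmt1* KO (squares) libraries and a diamond for *Dicer* KO. The KO libraries of day 17 have 11.05 and 11.13 RPKM of *Acta2* at 0.0186 and 0.0296 RPKM of *Col1a2*, whereas *Dicer* KO has 117.7 RPKM of *Acta2* at 7.29 RPKM of *Col1a2*.

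The *Dicer* KO library was compared with the 7 high-share WT libraries, without a test since it has no replicate. *Dicer1* RNA did not identify the line, with 4.01 RPKM against 3.90 to 8.57 RPKM in those WT libraries, and *Dnmt1* had 34.8 RPKM. All 10 genes were more than 1 log2 unit above the mean of the WT libraries, against 14.6% of all tested genes (9.3% were as far below and none of the 10 was), and all 10 were above every 1 of the 34 WT and *Dnmt1* KO libraries, against 24.6%. *Acta2* had 117.7 RPKM, against 0.0729 to 1.21 RPKM in the 7 WT libraries. *Tagln* had 121.0 RPKM (WT 1.54 to 11.7), *Tpm1* 77.6 RPKM (8.33 to 16.2), *Ctgf* 61.1 RPKM (6.05 to 13.5), *Myl9* 46.2 RPKM (1.16 to 4.31) and *Cyr61* 43.9 RPKM (2.92 to 12.3). *Tpm2* had 22.9 RPKM (2.75 to 4.13), *Ankrd1* 11.8 RPKM (0 to 1.202), *Cnn1* 6.93 RPKM (0.954 to 1.54) and *Actg2* 6.48 RPKM (0 to 0.0213).

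In log2 units the differences ran from 2.45 for *Cnn1* to 8.05 for *Acta2*, and the SD of the 7 WT libraries on the same scale was 0.223 for *Cnn1* and 1.06 for *Acta2*. *Cnn1* and *Tpm2* were 4.496 and 5.21 times their highest level in any other library. *Actg2* had 261 reads against 1 read in the 7 WT libraries together (ratio per library total 2196, exact 95% interval 391 to 87075). The size depends on the reference, and against WT day 0 *Acta2* differed by 4.23 and *Tpm1* by 3.97, instead of 8.05 and 2.60. Fibroblast markers were high in this library too. Their sum was 526.6 RPKM, against 12.8 to 27.1 RPKM in the high-share WT libraries, and 16 of 19 were more than 1 log2 unit higher, with *Vim* at 226 RPKM, *S100a4* at 245 RPKM and *Col1a2* at 7.29 RPKM. Their part in the result was not tested. Some muscle genes were higher here than in any other library too. Examples were *Myocd* at 0.105 RPKM (0.0195 at most elsewhere), *Myh11* at 0.661 RPKM (0.0569), *Lmod1*, an actin nucleator of smooth muscle, at 2.01 RPKM (0.376), *Tnnt2* at 0.175 RPKM (0.0565) and *Acta1* at 14.1 RPKM (2.84). *Des* (0.796 RPKM against up to 2.46), *Myl7* (0.0657 against 0.879) and *Myog* (0.0262 against 0.154) were not. By the limit of 1 log2 unit from the high-share WT mean, 4 of 11 smooth muscle genes lay above and 1 below. For heart markers this split was 3 and 2 of 8, and for skeletal muscle markers 1 and 1 of 7. The shares of all tested genes were 14.6% and 9.3%.

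**Figure D5:**
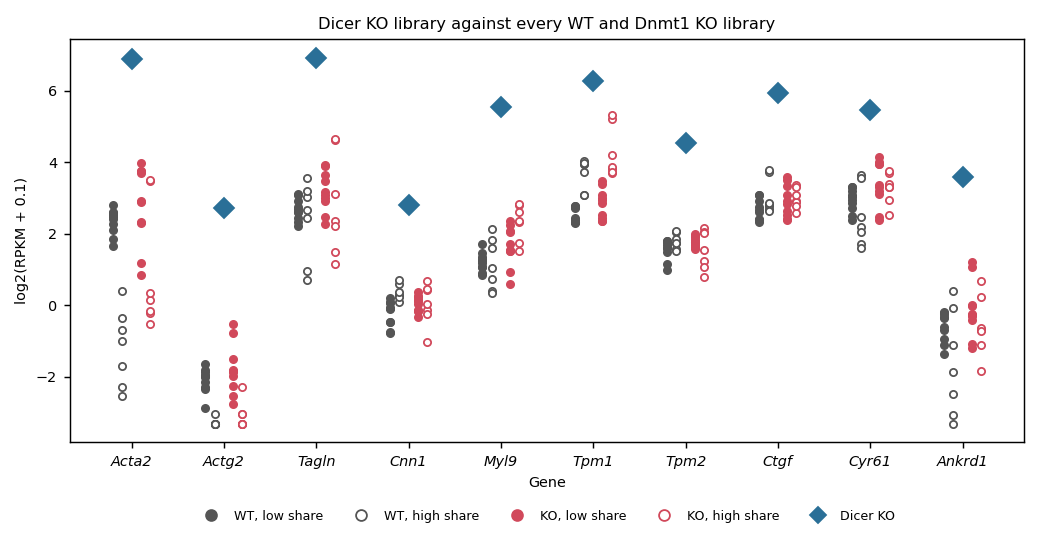
Level of the 10 genes, as log2(RPKM + 0.1), in the *Dicer* KO library (diamond) and in every WT (grey) and *Dnmt1* KO (red) library, filled for low-share and open for high-share libraries. The diamond lies above every other point of its gene, from 1.96 times the next highest library for *Tpm1* to 10.9 times for *Actg2*.

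The genes of the set did not vary as 1 group. Over the 34 WT and *Dnmt1* KO libraries, with the mean of each class of libraries subtracted, *Acta2* had a Pearson r of 0.85 with *Myl9* and 0.82 with both *Tagln* and *Tpm1*. It had 0.07 with *Cnn1* and 0.08 with *Ankrd1*. *Ctgf* and *Cyr61* had 0.81 with each other. The libraries share genotype, day and depth, so these values are descriptions. The gene closest to *Acta2* among all tested genes was *Anxa1* (annexin, r 0.93), to *Tagln* *Igfbp3* (0.87), to *Myl9* *S100a6* (0.90), to *Cyr61* *Pid1* (0.88) and to *Ankrd1* *Tcn2* (0.93). *Tpm1* was closest to *2900073G15Rik* (0.92) and then to the keratin gene *Krt8* (0.90), and *Ctgf* to *Gm15270* (0.89). The gene closest to *Tpm2* was *Cgnl1* (0.72). At day 17 *Anxa1* itself had 2.99 and 3.19 RPKM in WT and 15.1 and 13.9 RPKM in KO, and the *Dicer* KO library held 62.6 RPKM.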

How the data were processed

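Per the study's methods and the submitters' processing notes, the authors trimmed reads (Trim Galore 0.3.5), aligned them to NCBIM37 with TopHat2 2.0.11, removed poorly mapped reads and used SeqMonk for the gene levels. The methods name log2 RPM, but the deposited table holds linear RPKM of 35 libraries (reads scaled to exon length and to the reads of the library), so limma was used in place of the authors' DESeq2 and SeqMonk intensity difference test. The levels were turned back into reads with exon lengths of GENCODE vM1 (99.9% of rows matched), and 99.51% to 99.74% of values below 20 reads per library came out whole within 0.1. Libraries held about 24300000 to 72100000 reads. Intervals and floors (3 reads) cover counting error only.

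Group means of log2(RPKM + 0.1) over the 34 WT and *Dnmt1* KO libraries were fitted with limma 3.58.1 in R 4.3.3 (eBayes with trend), for genes above 1 RPKM in at least 2 libraries, with 1 term for the third day 1 libraries, and called at a Benjamini-Hochberg adjusted p below 0.05. The series describes 2 replicates per group, and earlier results had shown these libraries to differ in composition. That term was chosen with those results known, and it raises the calls strongly against a fit that keeps these libraries without it. The same holds for leaving day 6 out of the mean over days. The 10 genes, the other lists, the tests and the boundary of 35% between library classes were likewise chosen with earlier results of these data known. The genes named are the 10, *Dnmt1*, *Dicer1*, per list and comparison the 2 called genes with the largest differences, and the 3 genes most alike each, of which the closest are given and 1 is not reported here; single markers were picked after their values were seen. Alternatives were other pseudocounts, no filter, median centring, no term for or without the third day 1 pair, only the groups compared, a replicate block, each library left out, and voom on recovered reads, added after the data were seen. Libraries of 1 group differed beyond counting noise (lowest ratio of chi-square to its degrees of freedom 1.40), with a Pearson r of 0.969 to 0.995 within a class of gene-read share. Within a class the largest ratio was 49.9, between the 2 KO libraries of day 11, and the next was 15.7, in WT day 17. All groups share 1 estimate of the spread for each gene, so the p-values of day 11 do not rest on the spread of that day alone. The fit was tested on simulated data, drawn with the same spread for all groups. Such data cannot show how the fit behaves where the spread differs between groups. Python 3.11.15, pandas 2.3.3, scipy 1.17.1 and matplotlib 3.10.9 were used.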

Additional observations from a re-analysis of the deposited data

Results flagged for a closer look

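For 7 genes the KO effect at day 25 differed from that at day 11 by the test of the difference itself (limma adjusted p below the threshold). In log2 units, day 25 minus day 11, it was -0.79 for *Myl9*, -1.72 for *Cyr61*, -1.32 for *Tagln*, -1.20 for *Tpm1*, -0.98 for *Ctgf*, -1.98 for *Acta2* and 1.98 for *Ankrd1*.

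For 8 genes the effect at day 25 differed from that at day 17, a contrast added after the values were seen. It was -1.16 for *Myl9*, -1.85 for *Cyr61*, -1.03 for *Tpm2*, -2.93 for *Tagln*, -1.67 for *Tpm1*, -1.40 for *Ctgf*, -4.50 for *Acta2* and 1.45 for *Ankrd1*. The value for *Ankrd1* rests on 1 read in WT at day 25, and it no longer passed with a pseudocount of 1 (0.23, limma adjusted p 0.176).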

How the results depend on the processing

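No difference changed direction while called. The number of the 9 genes called moved most when the third day 1 libraries had no term: 0 at days 1, 3 and 6 (1, 6 and 3 with it), 2 at day 9 (4), 3 at day 11 (7), 5 at day 17 (8), 3 for day 25 against day 11 (7) and 0 for WT day 9 against day 0 (2). All genes called then fell from 1301 to 77 at day 3, 3160 to 382 at day 9, 4066 to 653 at day 11, 4671 to 1204 at day 17 and 7591 to 2430 at day 25. Since the differences at these days did not move, the 2 fits differ there only in the spread they estimate. Without the term that spread takes in the third day 1 libraries. Against the other libraries of their group these had ratios of chi-square to its degrees of freedom of 83.1 to 122. At day 1 0 genes were called without the filter, in the day's own groups or with the replicate block, and 2 without the third pair. With the groups compared alone 3 were called at day 11 and 4 for WT day 9 against day 0, where a pseudocount of 0.01 or voom left 1 and no filter 0. Over all genes that setting called 311 at day 11 and 2153 at day 3.

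With 1 library left out, the 9 genes gave 0 calls at day 0, 0 to 2 at day 1, 5 to 6 at day 3, 2 at day 6, 4 at day 9, 5 to 6 at day 11, 6 to 7 at day 17, 5 to 6 at day 25, 6 to 8 for the mean, 6 to 7 and 8 to 9 for day 25 against days 11 and 17, 7 to 8 for WT day 25 against day 11 and 0 to 2 for WT day 9 against day 0. A lone library was assumed to vary like the others.

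Replicate numbers did not pair the libraries (correlation of deviations by day -0.159 to 0.26). With the replicate block *Cyr61* at day 1 (limma adjusted p 0.141) and *Tpm1* at day 25 (limma adjusted p 0.0744) no longer passed, and *Tpm2* over the mean of days passed.

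With other references, a pseudocount of 1 or centring, the *Dicer* KO library stayed over 1 log2 unit above WT for all 10 genes. Depth limits *Actg2* at days 11 to 25 and *Ankrd1* in WT at day 25, with 5 reads or fewer per library. It also limits *Actg2* at earlier days, such as WT at day 9 (24 and 4 reads), and *Acta2* in WT at day 11 (6 and 5 reads).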
